A study of Homo sapiens with 6 samples.

Results

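The genes described here are 58 nucleolar ribosome biogenesis factors, that is, proteins that transcribe ribosomal RNA, modify and cut its precursor and assemble the ribosomal subunits. They were chosen by name, and 57 of the 58 were found by symbol among the 26613 genes with at least 1 count. BOP1, a large subunit factor, had no entry under its symbol and was not analysed here. All 57 passed the filter on low counts that left 15607 genes for testing. By role they comprised 8 genes of RNA polymerase I transcription, the snoRNP chaperone NOLC1, 3 box C/D and 6 box H/ACA snoRNP proteins, 20 small subunit factors, 15 measured large subunit factors and 4 abundant nucleolar proteins.

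The 6 libraries came from 293T cells, a line derived from HEK293 human embryonic kidney cells that takes up nucleic acid readily. In the mimic group, 3 cultures were given a miR-941 duplex at 10 nM with Lipofectamine 2000. In the mock group, 3 cultures were given a scrambled oligonucleotide in parallel, for which the labels record no dose. Cells had been plated 24 h earlier, all 6 cultures were transfected, and the labels call the transfections independent. The sources used here do not give the time between transfection and lysis. In these bulk samples a change in the number of cells in a given state cannot be told apart from a change in RNA per cell.

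Libraries held 6401918 to 7651046 counts in the mimic group and 6079420 to 7405330 in the mock group, so that 3 counts equal 0.392 to 0.493 CPM (counts scaled to the size of the library). Of 8 genes taken as markers of the line 6 had counts, with sums of 1882 to 1967 CPM in mimic and 1779 to 1885 CPM in mock libraries. Most of the sums came from VIM, KRT8 and KRT18, which are not particular to renal or neural cells, so the sums do not show such an origin. Over the 6 libraries PAX2 had 5.94 to 10.9 CPM, NES 12.3 to 19.5 CPM and NEFM 53.9 to 83.3 CPM, while LHX1 and NEFL had no entry. Haematopoietic, endothelial and hepatocyte markers summed to at most 5.36 CPM in any library, with PTPRC, HBB and TTR at 0 and no entry for PECAM1. Fibroblast markers summed to 37.6 to 43.0 CPM in mimic and 38.0 to 40.0 CPM in mock libraries, nearly all of it COL1A1, and DCN was at 0. Principal component 2 separated mimic replicate 3 (-12.5) from its group (5.14 and 8.88), and component 3 separated mock replicate 3 (11.2) from its group (-7.54 and -4.16).

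Ribosomes are built in the nucleolus. RNA polymerase I copies the ribosomal DNA into a long precursor, which small nucleolar ribonucleoproteins (snoRNPs) modify at chosen bases. Box C/D particles carry the methyltransferase fibrillarin and box H/ACA particles the pseudouridine synthase dyskerin. The small subunit processome then folds and cuts the small subunit part, while a separate set of factors matures the large subunit. In proliferating cells such as 293T these genes are strongly expressed, and many are known targets of MYC.

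The agent that separates the groups is shown first. The mature miR-941 strand, from RefSeq (GRCh38.p14, chromosome 20, the same in 5 loci), has its seed, bases 2 to 8, in capitals.
hsa-miR-941: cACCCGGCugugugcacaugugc

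Of 57 members, 8 rose and 3 fell in mimic-transfected cells, which is 19.3% against 13.0% of all tested genes. The members are well expressed, and among the 10180 genes with a mean level at or above that of NAF1, the lowest member, 17.8% were called. The share of changed members therefore lay near that of genes of like level. Members rose in 14.0% and fell in 5.26% of cases, against 6.80% and 6.19% of all tested genes and 9.04% and 8.77% of genes at the members' levels. NOLC1, TCOF1, NAF1, DKC1, NOP53, NOP10, POLR1B and MYBBP1A rose, and WDR36, UTP15 and RRN3 fell. The other 46 did not pass. Calls are those of edgeR (quasi-likelihood test, Benjamini-Hochberg adjusted p under 0.05 over all tested genes), and fold changes are mimic over mock.

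The typical member hardly differed between the groups. The median log2 fold change of the 57 members was 0.016, against 0.002 for all tested genes, and 36 members lay within 0.1 of 0. In 18 members, or 31.6%, all mimic libraries lay on 1 side of all mock libraries, against 28.3% of tested genes and 34.5% of genes at the members' levels. An unadjusted p under 0.05 was reached by 17 members, or 29.8%, against 25.5% of tested genes and 32.5% of genes at the members' levels. DESeq2's Wald test called 7 of the 57 members, against 1018 of all 15607 tested genes (6.52%). Its share among genes at the members' levels was not computed. All 7 were among the 11 changed members, and NAF1, POLR1B, RRN3 and UTP15 were the 4 it did not call.

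**Figure D1:**
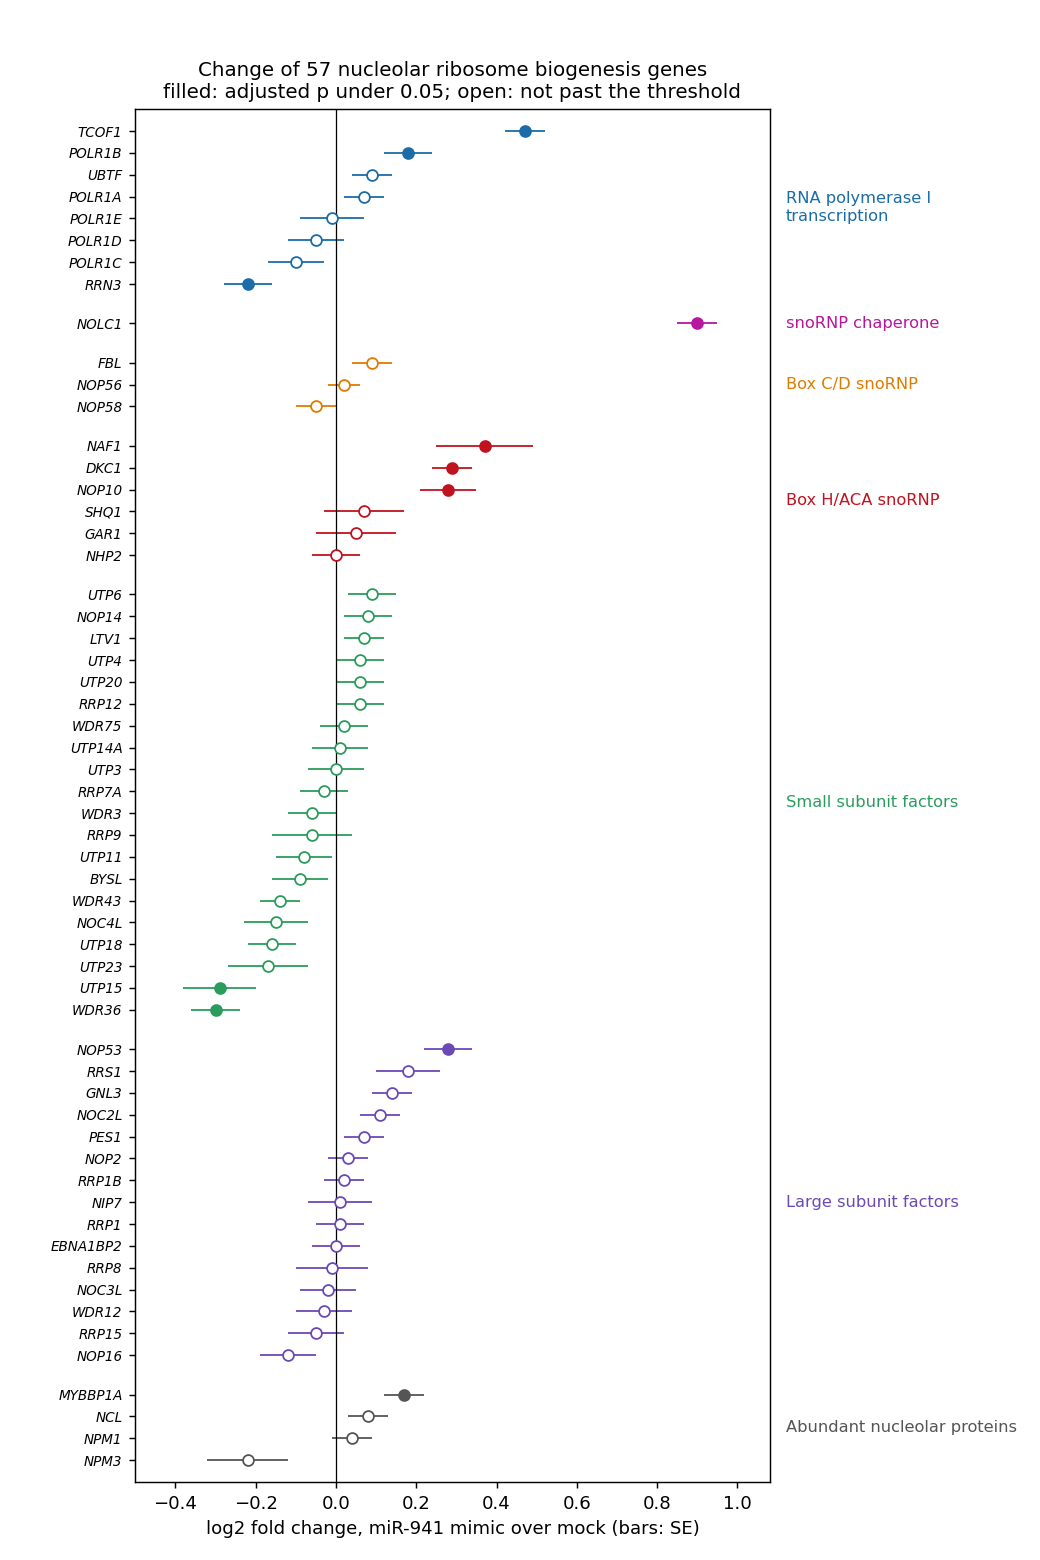
Each point is the log2 fold change of 1 member, mimic over mock (3 libraries each), with its standard error, grouped by role; filled points passed an adjusted p of 0.05. NOLC1 stands far to the right at 0.90, the next is TCOF1 at 0.47, and most others lie within 0.1 of 0.

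NOLC1 had by far the largest change of the set. It encodes Nopp140, a heavily phosphorylated nucleolar and Cajal body protein that binds both classes of snoRNP, and it lies on chromosome 10 at 102152176 to 102163871 (plus strand, GRCh38). Its level was 322, 300 and 344 CPM in the mimic libraries, against 174, 174 and 170 CPM in the mock libraries. The lowest mimic library was thus well above the highest mock library, and the mock libraries differed among themselves by very little. The log2 fold change was 0.90 ± 0.05 (SE), or 1.86-fold, with an adjusted p of 1.74e-23. Among all 15607 tested genes it held rank 51 from the top of the fold changes. NOLC1 was called in all 16 alternative analyses, with log2 fold changes of 0.85 to 0.95, and no other counted gene shared a read-length stretch with it.

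TCOF1 encodes treacle, a nucleolar phosphoprotein with a repeat structure like that of Nopp140, which links RNA polymerase I to rRNA processing. The gene lies at chr5:150357629-150400308 (this and the following gene positions are GRCh38), and mutations in it cause Treacher Collins syndrome. Its level was 305, 304 and 303 CPM in the mimic libraries, against 223, 220 and 217 CPM in the mock libraries. Both groups were tight and did not overlap. TCOF1 rose with a log2 fold change of 0.47 ± 0.05 (adjusted p = 2.41e-12), and it too was called in all 16 alternatives.

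The other genes of RNA polymerase I transcription had log2 fold changes of -0.22 to 0.18, with 1 rise and 1 fall. Of all 8 genes of this role, TCOF1 included, 37.5% were called, against 13.0% of all tested genes and 17.8% at the members' levels. POLR1B, the second-largest catalytic subunit (chr2:112541915-112577150), had 81.8, 82.1 and 78.1 CPM in mimic libraries, against 68.2, 74.4 and 71.1 CPM in mock libraries. The groups lay close but did not overlap, and the adjusted p was 0.0448, with a log2 fold change of 0.18 ± 0.06. The call ended in 8 of 16 alternatives, among them leaving out mimic replicate 1 (0.147), mimic replicate 2 (0.127), mock replicate 1 (0.229) or mock replicate 3 (0.113). POLR1A, the largest subunit, averaged 161 ± 3.46 CPM in mimic and 153 ± 6.89 CPM in mock libraries (SD, n = 3 each), with overlap between the groups and an adjusted p of 0.393. UBTF, the factor that opens ribosomal DNA chromatin for transcription, averaged 189 ± 10.6 CPM in mimic and 178 ± 4.15 CPM in mock libraries (adjusted p = 0.281). POLR1C and POLR1D, which are shared with RNA polymerase III, and POLR1E, part of the heterodimer that aids initiation, had log2 fold changes of -0.10, -0.05 and -0.01 and did not pass.

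RRN3 (chr16:15060022-15094317), the growth-regulated initiation factor that brings RNA polymerase I to the promoter, was the member of this group that fell. It had 75.8, 67.9 and 73.4 CPM in mimic libraries, against 85.2, 86.5 and 81.6 CPM in mock libraries. All mimic libraries were below all mock libraries, a log2 fold change of -0.22 ± 0.06 (adjusted p = 0.00942). The call ended under DESeq2 (0.0564) and without mimic replicate 2 (0.0807). The deposited counts do not say whether strand was used, so 18 members with exons over another gene, and 20 that share a stretch of read length with another counted gene, are less certain. RRN3 shares such stretches with the pseudogenes RRN3P1 and RRN3P3, counted at 11.5% and 11.7% of its level, and with CDR2, at 67.3%, so its change is uncertain. Of these partners, RRN3P1 had a log2 fold change of -0.33, RRN3P3 of 0.24 and CDR2 of -0.00, and none passed.

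Of 6 box H/ACA proteins 3 rose and none fell, with a median log2 fold change of 0.174. Without mock replicate 1 the count of risen proteins was 1. Of all tested genes 13.0% were called and 6.80% rose, and of genes at the members' levels 17.8% were called and 9.04% rose. A share of 6 genes is coarse, and whether the H/ACA proteins rose as a group was not tested. DKC1 encodes dyskerin, the pseudouridine synthase, which also belongs to telomerase, and lies at chrX:154762742-154777689. It had 208, 199 and 204 CPM in mimic libraries, against 166, 164 and 170 CPM in mock libraries, with no overlap. Its log2 fold change was 0.29 ± 0.05 (adjusted p = 6.66e-06), and the call held in all 16 alternatives. NOP10 (chr15:34341713-34343177), a small protein that binds dyskerin directly, had 59.9, 61.2 and 70.2 CPM in mimic libraries, against 49.0, 53.1 and 55.1 CPM in mock libraries. It changed by 0.28 ± 0.07 (adjusted p = 0.00378), and the call ended only without mock replicate 1 (0.0637). NAF1 (chr4:163110073-163166921), an assembly factor that is exchanged for GAR1 as the particle matures, was the least abundant member. It had 18.5, 16.8 and 15.4 CPM in mimic libraries, against 12.1, 13.3 and 13.9 CPM in mock libraries. The log2 fold change was 0.37 ± 0.12 (adjusted p = 0.0337), and the call ended in 6 of 16 alternatives, among them leaving out mimic replicate 1 (0.198), mimic replicate 2 (0.0638), mock replicate 1 (0.177) or mock replicate 2 (0.0687).

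The remaining H/ACA proteins did not pass. NHP2, a core protein, averaged 108 ± 3.85 CPM in mimic and 108 ± 3.15 CPM in mock libraries, with a log2 fold change of -0.00 ± 0.06. GAR1, the core protein that completes the mature particle, and SHQ1, the chaperone of free dyskerin, had log2 fold changes of 0.05 ± 0.10 and 0.07 ± 0.10. Whether DKC1 and NOP10 differ in their change from NHP2 and GAR1 was not tested. NHP2 overlaps exons of RMND5B, a gene in the other orientation whose count was 94.3% of its own.

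None of the 3 box C/D core proteins among the members passed edgeR's or DESeq2's test, and 0 had an unadjusted p under 0.05. SNU13, a further core protein, was read with the other small subunit factors. It had a log2 fold change of -0.10 ± 0.05 by edgeR (unadjusted p = 0.0497, adjusted p = 0.195), with all mimic libraries below all mock libraries. Fibrillarin (FBL), the methyltransferase, had 443, 427 and 411 CPM in mimic libraries, against 411, 377 and 416 CPM in mock libraries, and the groups overlapped (0.09 ± 0.05, adjusted p = 0.203). NOP56 had 532, 514 and 538 CPM in mimic libraries, against 530, 526 and 509 CPM in mock libraries. NOP58, its partner in the particle, averaged 177 ± 14.0 CPM in mimic and 183 ± 2.44 CPM in mock libraries. Their log2 fold changes were 0.02 ± 0.04 and -0.05 ± 0.05.

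**Figure D2:**
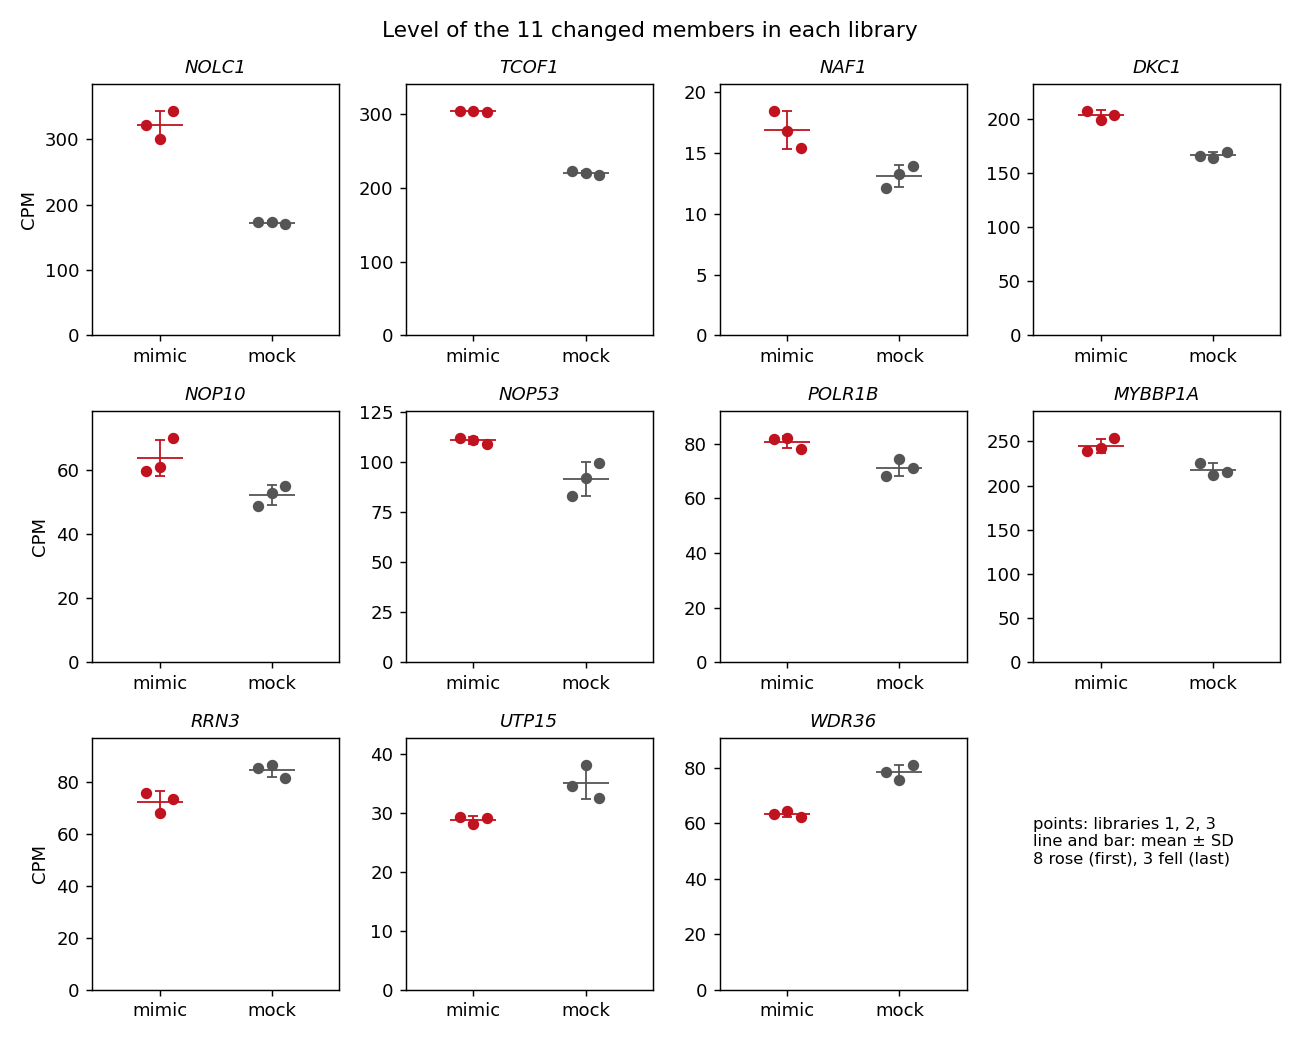
Each panel shows 1 of the 11 changed members, with CPM from 0 on the vertical axis, points for the 3 mimic (left) and 3 mock (right) libraries, and mean ± SD. In every panel the groups do not overlap; NOLC1 has the widest gap, 300 CPM or more in mimic against 174 or less in mock libraries.

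Of 20 small subunit factors 2 fell and none rose by edgeR, with a median log2 fold change of -0.047. Of all tested genes 13.0% were called and 6.19% fell, and of genes at the members' levels 17.8% were called and 8.77% fell. An unadjusted p under 0.05 was reached by 4 of the 20, against 25.5% of all tested genes and 32.5% at the members' levels. Whether the small subunit factors fell as a group was not tested. Among the 20, DESeq2 called only WDR36. The count of fallen factors was 4 without mimic replicate 3 and 1 without mock replicate 2. WDR36 is the human counterpart of the UTP-B protein Utp21 of yeast and lies at chr5:111091716-111130502. It had 63.3, 64.3 and 62.3 CPM in mimic libraries, against 78.5, 75.4 and 81.0 CPM in mock libraries. The groups were well apart, the log2 fold change was -0.30 ± 0.06 and the adjusted p 0.000353, and the call held in all 16 alternatives. UTP15 (chr5:73565443-73583377), a UTP-A protein of the complex that starts processome assembly, had 29.3, 28.2 and 29.1 CPM in mimic libraries, against 34.7, 38.2 and 32.6 CPM in mock libraries. It changed by -0.29 ± 0.09 (adjusted p = 0.0190), which ended under DESeq2 (0.107), without mimic replicate 2 (0.0605) and without mock replicate 2 (0.166). Its exons overlap those of ANKRA2, which runs the other way, had a count 60.2% as large and a log2 fold change of -0.08.

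Partners of these proteins gave values on both sides of 0. UTP18, also of UTP-B, had 77.7, 81.7 and 74.1 CPM in mimic libraries, against 85.7, 88.6 and 87.7 CPM in mock libraries. All mimic libraries were lower, and the adjusted p was 0.0642. It passed in 4 of 16 alternatives: library totals only, the GC content and length offset with and without the replicate block, and without mimic replicate 2 (lowest 0.0427). The UTP-B proteins WDR3 and UTP6 had log2 fold changes of -0.06 and 0.09, and the UTP-A proteins WDR43, WDR75 and UTP4 of -0.14, 0.02 and 0.06. WDR43 passed without mimic replicate 3 (adjusted p = 0.00533), against 0.0870 with all libraries, and so did NOC4L (0.0495 against 0.218). The remaining processome members ran from UTP23 at -0.17, over RRP9, a U3 snoRNP protein, at -0.06, to NOP14 at 0.08. The late small subunit factors BYSL, RRP12 and LTV1, which accompany the particle toward export, had -0.09, 0.06 and 0.07, and none passed.

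Among 15 measured large subunit factors 1 rose and none fell by edgeR and by DESeq2. By edgeR that is 6.67% called, against 13.0% of all tested genes and 17.8% of genes at the members' levels. An unadjusted p under 0.05 was reached by 4 (26.7%), against 25.5% of all tested genes and 32.5% of genes at the members' levels. NOP53 (chr19:47745522-47757058) holds the ribosomal protein RPL11 in the nucleolus and also helps mature the large subunit. Its level was 112, 111 and 109 CPM in mimic libraries, against 82.9, 91.8 and 99.5 CPM in mock libraries. The mimic libraries were tight and the mock libraries spread out below them. The log2 fold change was 0.28 ± 0.06 with an adjusted p of 0.000363, and the call held in all 16 alternatives. RPL11 itself rose, to 1055 ± 3.59 CPM in mimic against 923 ± 46.4 CPM in mock libraries (adjusted p = 0.00106).

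PES1 and WDR12, which with BOP1 form the PeBoW complex of large subunit maturation, averaged 190 ± 6.91 and 64.4 ± 2.54 CPM in mimic libraries, against 180 ± 9.47 and 65.6 ± 2.43 CPM in mock libraries, and neither passed. GNL3 (nucleostemin, a nucleolar GTPase), NOC2L and RRS1 had log2 fold changes of 0.14, 0.11 and 0.18, with all mimic libraries above all mock libraries but adjusted p of 0.0756, 0.102 and 0.139. GNL3 passed when GC content and length were corrected for, and without mimic replicate 2. NOP2 and RRP8, both rRNA methyltransferases, had 0.03 and -0.01. The rest ran from NOP16 at -0.12 to RRP1B at 0.02.

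Of 4 abundant nucleolar proteins 1 rose and none fell by edgeR. Of all tested genes 13.0% were called and 6.80% rose, and of genes at the members' levels 17.8% were called and 9.04% rose. An unadjusted p under 0.05 was reached by 2 of the 4, against 25.5% of all tested genes and 32.5% at the members' levels. A share of 4 genes is coarse. The risen gene was MYBBP1A (chr17:4538897-4555631), which encodes a MYB-binding protein that represses RNA polymerase I. It had 239, 242 and 254 CPM in mimic libraries, against 226, 212 and 215 CPM in mock libraries. The log2 fold change was 0.17 ± 0.05 with an adjusted p of 0.0101, and the call ended without mock replicate 2 (0.0695) and without mock replicate 3 (0.0620). It overlaps SPNS2, whose count was 27.4% of its own, with a log2 fold change of 0.14 that did not pass. Nucleolin (NCL), which binds nascent rRNA, had 1465, 1402 and 1628 CPM in mimic libraries, against 1432, 1421 and 1397 CPM in mock libraries. The groups overlapped, with 1 mimic library well above the rest (0.08 ± 0.05, adjusted p = 0.265). NPM1, a nucleolar chaperone that shares read-length stretches with several of its pseudogenes, had 0.04 ± 0.05, and its relative NPM3 had -0.22 ± 0.10 (adjusted p = 0.176).

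**Figure D3:**
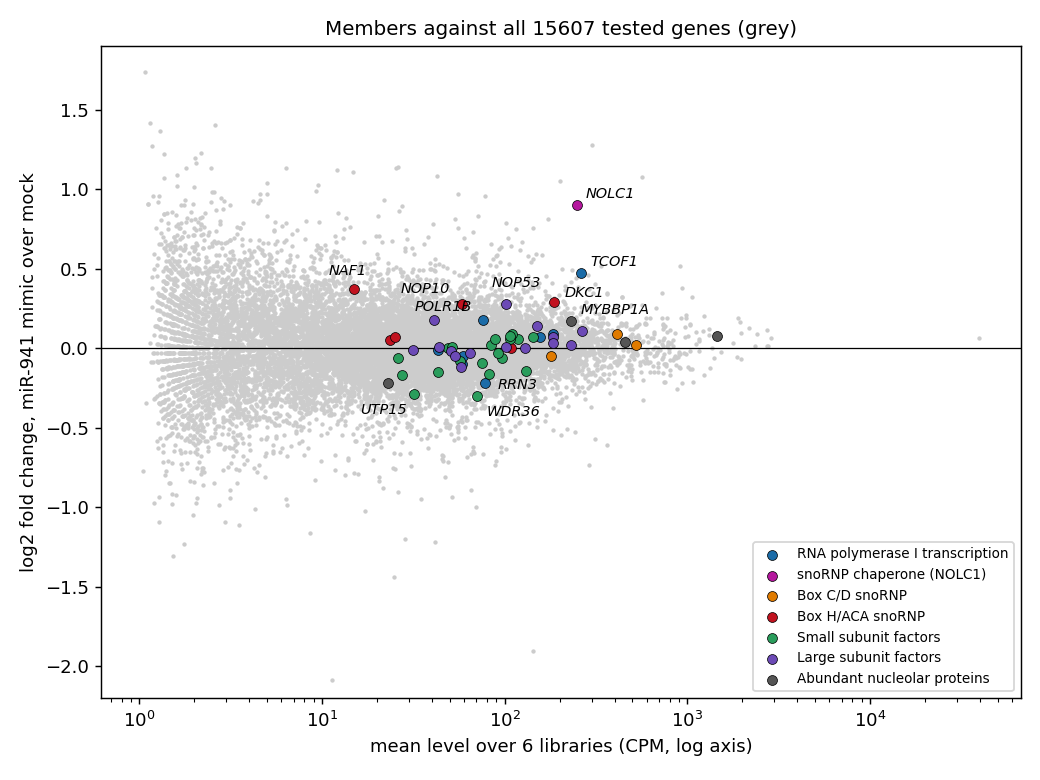
Each point is 1 gene, with its mean CPM over 6 libraries on a log axis and its log2 fold change, mimic over mock; the 57 members are coloured by role over all 15607 tested genes in grey. Members sit at middle to high levels, up to 1457 CPM, most of them close to 0, with NOLC1 highest at 0.90.

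Summed over the 57 members, the level was 8373, 8126 and 8673 CPM in mimic libraries, against 7944, 7873 and 7913 CPM in mock libraries. Without NOLC1 the sums were 8051, 7827 and 8328 CPM in mimic libraries, against 7769, 7698 and 7744 CPM in mock libraries. The mimic sums were above the mock sums either way, and the sums weight the most abundant genes. Mimic replicate 3 held the highest of the 3 mimic values in 30 of 57 members and mimic replicate 2 the lowest in 29, and their part in the results was not tested beyond the analyses that leave each library out.

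Levels per length differed widely within the set. On the scale of CPM per kilobase of annotated exon in mock libraries, NCL stood highest at 204 ± 2.57, followed by FBL at 184 ± 9.78 and NPM1 at 118 ± 1.91. NAF1 was lowest at 2.73 ± 0.198, below SHQ1 at 4.21 ± 0.337 and RRP8 at 4.54 ± 0.344, and SHQ1 and RRP8 do not differ beyond their spread. The core H/ACA proteins NOP10 and GAR1 were at 94.6 ± 5.64 and 11.3 ± 0.0525, although they sit in the same particle. In mimic libraries NOLC1 reached 81.1 ± 5.63, against 43.5 ± 0.680 in mock libraries, and stood above NHP2 at 71.2 ± 2.55 and NOP58 at 53.6 ± 4.26, both of which it lay below in mock libraries. Exon lengths are the union of all annotated transcripts, so genes with many annotated variants, such as TCOF1, are understated.

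**Figure D4:**
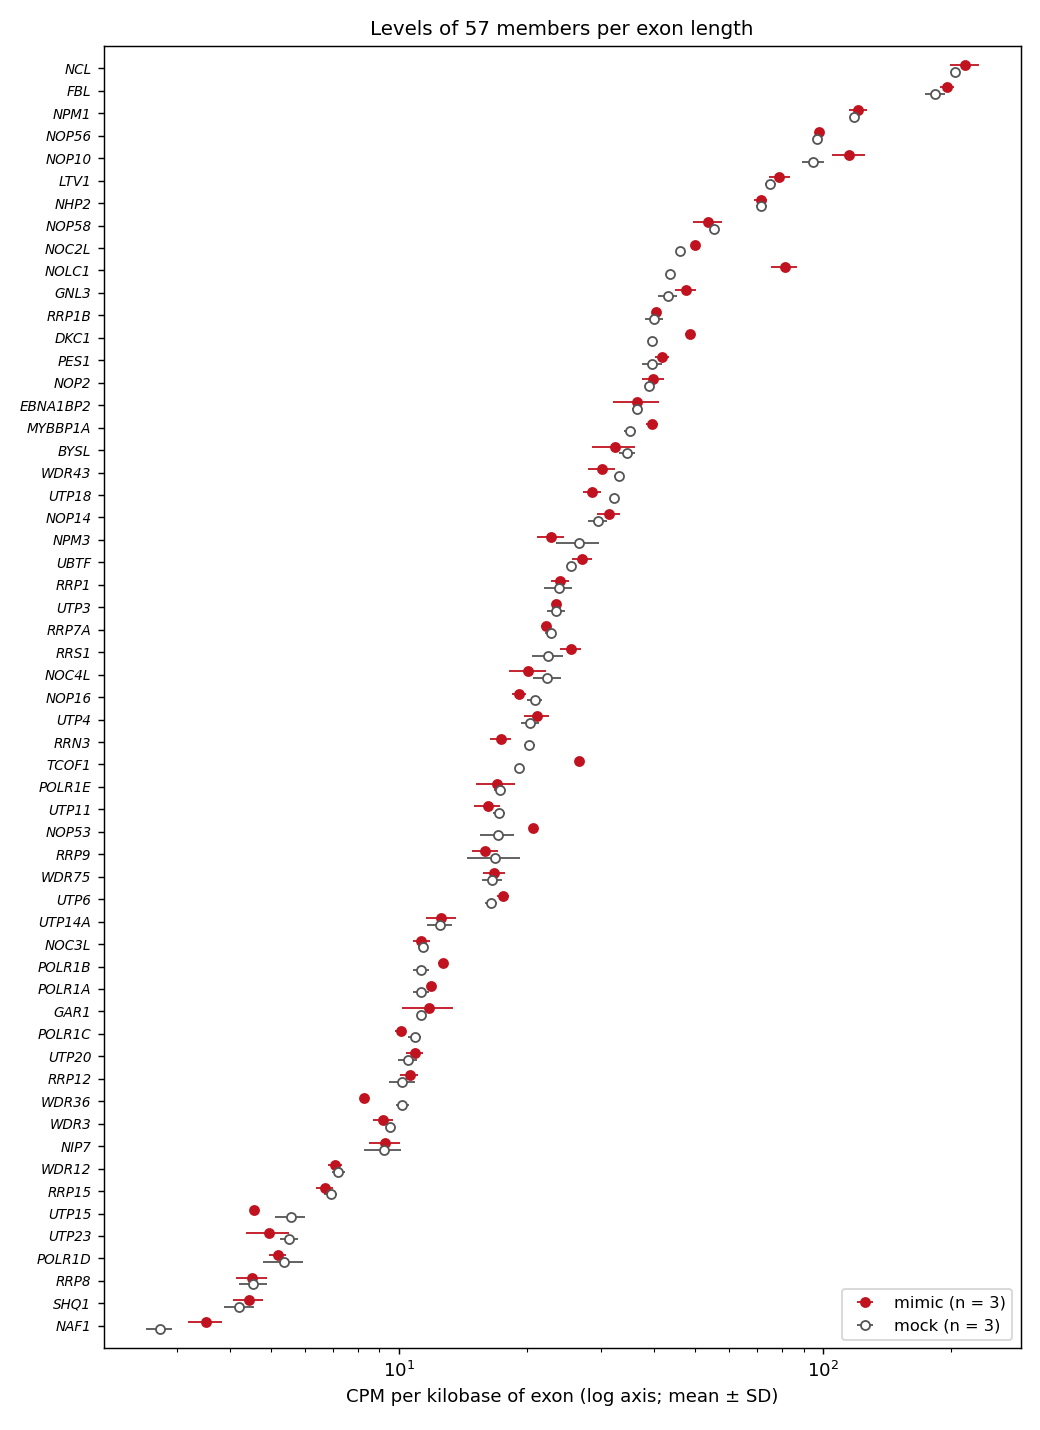
Each row is 1 member, ordered by its mock level, with the mean ± SD of CPM per kilobase of exon on a log axis for mimic (filled) and mock (open) libraries, n = 3 each. The order runs from NCL at 204 to NAF1 at 2.73 in mock libraries, and the clearest gap between the groups is that of NOLC1.

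Sites for bases 2 to 8 of miR-941 were rare in these genes, as they were among all tested genes. None of the 11 changed members had one, which says little where so few genes hold a site. The site complementary to bases 2 to 8, GCCGGGT, was present in the longest annotated 3′ UTR of 2 of 57 members (3.51%), against 706 of 13110 tested genes (5.39%). The members' 3′ UTRs are shorter, with a median of 951 bases against 1652. The members with a site were RRP7A and WDR12. The window of RRP7A is printed 5′ to 3′ with the site in capitals, from GENCODE release 29 transcripts. It lies at chr22:42510254-42510260 (GRCh38, minus strand), in the last exon, 7 of 7.
RRP7A: ctacaatcctgGCCGGGTatggtggctca

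The RRP7A site is an 8mer, with an A after the 7 bases, and starts 2650 bases into a 3′ UTR of 2942. The WDR12 site is a 7mer without that A. Neither gene passed. RRP7A, a small subunit factor, had 90.7, 93.3 and 88.3 CPM in mimic libraries, against 95.8, 90.4 and 92.8 CPM in mock libraries, and WDR12 had 62.0, 67.1 and 64.2 CPM in mimic libraries, against 63.9, 68.4 and 64.6 CPM in mock libraries. The groups overlapped in both genes, with log2 fold changes of -0.03 ± 0.06 and -0.03 ± 0.07. RRP7A shares read-length stretches with RRP7BP, counted at 31.4% of its level. The shorter match to bases 2 to 7 was present in 8 members, or 14.0%, against 15.5% of tested genes, and among the 8 were RRN3 and UTP15, which fell, and POLR1B, which rose.

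Promoters of the set often held the letters CACGTG, the E-box that MYC and its relatives bind, which reads the same on both strands. Of 48 members with a promoter in the RefSeq table (250 bases before to 50 after the start, GRCh38.p14), 16 held it, or 33.3%, against 10.0% of 10938 tested genes and 7.43% of all 27305 promoters. Among other ribosome biogenesis genes 28 of 121 held it, or 23.1%. The 18 matches lay from -241 to 35 bases of the start, with a median of 3.50. Of the 8 changed members with a promoter 2 held it, and of the 40 others 14. The presence of these letters is a description and does not show binding. NOLC1, TCOF1 and NAF1 were not among the 48. To show where the letters lie, promoters of the 2 risen members among the 48 that hold them (in capitals) and of DKC1, which had none, are printed 5′ to 3′ on the gene's strand: NOP10 at chr15:34343087-34343386 (minus), MYBBP1A at chr17:4555335-4555634 (minus) and DKC1 at chrX:154762614-154762913 (plus).
NOP10: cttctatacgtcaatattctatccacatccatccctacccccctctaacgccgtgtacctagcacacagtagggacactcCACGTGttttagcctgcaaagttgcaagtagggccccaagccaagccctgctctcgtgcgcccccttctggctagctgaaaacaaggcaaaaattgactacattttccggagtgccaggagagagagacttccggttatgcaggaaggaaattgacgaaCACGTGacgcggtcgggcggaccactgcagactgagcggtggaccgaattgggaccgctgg
MYBBP1A: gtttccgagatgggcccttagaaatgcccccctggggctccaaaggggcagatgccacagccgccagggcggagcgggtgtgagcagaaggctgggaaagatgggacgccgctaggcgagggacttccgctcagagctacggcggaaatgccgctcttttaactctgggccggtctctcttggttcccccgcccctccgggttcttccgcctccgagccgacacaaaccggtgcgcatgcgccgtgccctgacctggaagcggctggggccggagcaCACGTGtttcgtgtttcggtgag
DKC1: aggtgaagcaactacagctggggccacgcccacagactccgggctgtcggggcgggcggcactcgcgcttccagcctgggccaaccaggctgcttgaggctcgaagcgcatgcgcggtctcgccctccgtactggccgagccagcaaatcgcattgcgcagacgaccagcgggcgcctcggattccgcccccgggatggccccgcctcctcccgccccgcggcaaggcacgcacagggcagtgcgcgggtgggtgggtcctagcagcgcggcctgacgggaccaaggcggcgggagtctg

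MYC itself averaged 20.4 ± 0.433 CPM in mimic and 19.5 ± 1.63 CPM in mock libraries, and the groups overlapped (adjusted p = 0.739). Of 11 genes of the MYC network 1 fell and none rose, or 9.09% against 13.0% of all tested genes and 17.8% at the members' levels. An unadjusted p under 0.05 was reached by 3 (27.3%), against 25.5% and 32.5%. The gene that fell was MXD1, a MAX partner that opposes MYC, at -0.24 ± 0.08 (adjusted p = 0.0258), and its call ended under DESeq2 (0.124) and on leaving out any library but mimic replicate 1. MYCN, a relative of MYC with 18 to 40 counts per library, had -0.57 ± 0.22 and did not pass (adjusted p = 0.0755). Its mimic libraries (3.56, 4.75 and 2.83 CPM) all lay below its mock libraries (5.15, 5.56 and 6.07 CPM). MAX had 0.17 ± 0.07 with overlap between the groups (adjusted p = 0.111).

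Other ribosome biogenesis genes outside the 58 were read from 5 lists, of which 129 genes were tested. Of these 15 rose and 5 fell, or 15.5%, against 13.0% of all tested genes and near the 17.8% of genes at the members' levels, with a median log2 fold change of 0.012. DESeq2 called 9 risen and 2 fallen. Small subunit factors had 5 of 35 risen and 1 fallen, or 17.1% called, near the 17.8% of genes at the members' levels. DHX37, the helicase that releases U3 from the small subunit precursor, had 85.8, 86.9 and 80.4 CPM in mimic libraries, against 57.1, 61.3 and 58.5 CPM in mock libraries (0.52 ± 0.06, adjusted p = 3.61e-09). NOL10 and BMS1, a GTPase of the processome, rose by 0.26 and 0.21, BMS1 not without mock replicate 1 (adjusted p = 0.0615). TSR2, the chaperone of the ribosomal protein RPS26, fell to 39.7 ± 3.05 CPM in mimic against 56.3 ± 1.35 CPM in mock libraries.

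Large subunit factors had 7 of 49 risen and 2 fallen, or 18.4% called, near the 17.8% of genes at the members' levels. EIF6, which keeps the large subunit from joining the small one until it is mature, had 96.5, 101 and 85.5 CPM in mimic libraries, against 133, 129 and 136 CPM in mock libraries. The groups were far apart, and the log2 fold change was -0.49 ± 0.06 (adjusted p = 6.99e-10). The helicases DDX54 and DDX24 and the GTPase GTPBP4 rose by 0.26, 0.22 and 0.23.

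Of 15 other polymerase genes 2 rose and 2 fell, or 26.7% called, against 13.0% of all tested genes and 17.8% at the members' levels. DESeq2 called 1. TOP1, the topoisomerase that relaxes transcribed DNA, at 0.24 and TAF1D, a subunit of the promoter selectivity factor, at 0.19 rose, and POLR2E, a subunit shared by the polymerases, at -0.18 and POLR1F, a stalk subunit of RNA polymerase I, at -0.22 fell. The calls of TAF1D, POLR2E and POLR1F ended under DESeq2 (0.109, 0.0674 and 0.143). Leaving out 1 library also ended them. For POLR2E this was mock replicate 1 (0.229). For TAF1D it was mimic replicate 1 or either of mock replicates 2 and 3 (up to 0.229), and for POLR1F mimic replicate 2 or either of mock replicates 1 and 3 (up to 0.232). POLR1F also lost its call with the GC content and length offset (0.0522). RUVBL2, an ATPase of snoRNP assembly, rose by 0.16. It was the 1 gene called of 7 tested in its list, or 14.3%, against 13.0% of all tested genes and 17.8% at the members' levels. Its call ended under DESeq2 (0.0673) and without mimic replicate 1, mimic replicate 2, mock replicate 1 or mock replicate 3 (up to 0.109). None of 23 nucleases and cofactors of rRNA processing passed edgeR's or DESeq2's test. An unadjusted p under 0.05 was reached by 4 of them (17.4%), against 25.5% of all tested genes and 32.5% at the members' levels. In these lists TSR2 and POLR2E, which fell, and KRR1, which rose, held a site for bases 2 to 8 of miR-941. So did TBL3, DDX55 and TTF1, which did not pass. Whether the sites bear on these levels was not tested.

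Genes of the checkpoint that responds to failed ribosome assembly were read as well. CDKN1A, a cell cycle inhibitor, fell to 180 ± 2.29 CPM in mimic against 227 ± 9.07 CPM in mock libraries, and CDKN2A, which encodes the nucleolar protein ARF, rose to 202 ± 13.1 CPM in mimic against 165 ± 16.9 CPM in mock libraries. MDM2 (0.01 ± 0.05), a ubiquitin ligase that RPL5 and RPL11 bind, and RPL5 (-0.06 ± 0.05) did not pass.

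Several members also host snoRNAs. GENCODE release 29 places 25 snoRNA or scaRNA genes inside 8 members on the same strand, with 6 in GNL3, 5 in NOP56, 4 in NOP58 and 3 each in NCL and WDR43. Of these, 2 had counts, both in NOP56. All 71 bases of SNORD56 and all 72 of SNORD57 lie within annotated exons of NOP56 on the same strand, so their counts cannot be told apart from reads of the host. SNORD57 had 61, 53 and 66 counts in mimic libraries, against 60, 71 and 44 in mock libraries, and SNORD56 had 40, 34 and 36 counts in mimic libraries, against 33, 39 and 27 in mock libraries. The groups overlapped and neither passed (adjusted p = 0.973 and 0.774). The host NOP56 had a log2 fold change of 0.02. Most of these 25 genes are shorter than the reads of 100 bases. The longer ones, from SNORD23 at 110 bases to SNORA75 at 137 bases, had no counts either, and the reason was not tested. These libraries therefore say little about the particles themselves.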

How the data were processed

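RNA from 6 cultures, without most rRNA, was sequenced as single reads of 100 bases. The deposited values are raw counts per Ensembl gene, 1 table per library, listing only genes with at least 1 count, and absent genes were taken as 0. STAR, edgeR and the hg19 build are named, without versions, per the submitters' processing notes. Counting program, annotation and strand setting: not given in the sources used here.

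Genes were named from a symbol table. Lengths, overlaps, 3′ UTRs and snoRNA positions came from GENCODE release 29 (GRCh38), which differs from the authors' build, so coordinates here come from that annotation only. Libraries were grouped by title. Counts were filtered with edgeR's filterByExpr, scaled with TMM factors and tested with edgeR's quasi-likelihood test (robust, two-sided, group only), with Benjamini-Hochberg adjustment over 15607 genes at 0.05. Standard errors derive from the test statistic, and CPM carry SDs over 3 libraries. The biological coefficient of variation was 3.82%. Counts hold no molecular identifiers, so duplicates could not be removed, and the stated 3-count limits cover counting error only. The test was checked on simulated counts.

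Alternatives were DESeq2, limma voom, other scalings and filters, a replicate block, an offset for GC content and length (15084 genes with both) and leaving out each library. Members past the threshold are all named, with values by library, beside genes fixed by name, members with a seed site and up to 4 changed genes per list by smallest p. Members and lists were chosen with earlier results of these data known. Tools were edgeR 4.0.16, DESeq2 1.42.0, mgcv 1.9.3 and limma 3.58.1 under R 4.3.3. Other members are named to account for the whole set, after their values were seen. SNU13, MYCN and MAX of the lists were also named after their values were seen. Some items of the lists are not reported here.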

Additional observations from a re-analysis of the deposited data

How the results depend on the processing

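For the 41 genes chosen by the naming rule, under 16 alternatives (656 comparisons), none reversed, none gained a call and 45 lost one, spread over 12 genes. Of the 46 members not called, 4 gained a call under some alternative, 9 times in all: UTP18, GNL3, WDR43 and NOC4L. NOLC1, TCOF1, DKC1, NOP53 and WDR36 were called in all 16. DESeq2 called 513 risen and 505 fallen genes against 1061 and 966, and 1 fallen member against 3, 1 fallen small subunit member against 2, and 9 risen and 2 fallen other biogenesis genes against 15 and 5. Leaving out 1 library gave 689 to 1080 risen and 613 to 981 fallen genes, 5 to 8 risen and 2 to 5 fallen members, 1 to 3 risen H/ACA proteins, 1 to 4 fallen small subunit factors, and 10 to 13 risen and 3 to 7 fallen other biogenesis genes. The low counts of risen members (5) and risen H/ACA proteins (1) came without mock replicate 1, as did the low counts of all risen (689) and fallen (613) genes, and the high counts of fallen members (5) and small subunit factors (4) without mimic replicate 3. Scaling moved the median of all genes by under 0.1 in every alternative, and the cause of the differences was not tested. Same-numbered libraries did not clearly deviate together (r = 0.0933, -0.0816 and -0.0469 over 12886 genes), and pairs with unlike numbers ran from -0.0836 to 0.133. With 3 libraries per group this check is weak and does not settle whether same-numbered cultures share a batch. With the replicate block 965 genes rose and 854 fell, and 7 members rose and 3 fell, POLR1B losing its call (adjusted p = 0.0575). With the block and the GC content and length offset, 9 members rose and 4 fell. At this depth, with 3 libraries per group, the members' log2 fold changes carried standard errors of 0.04 to 0.12, largest for NAF1, the least abundant.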
